A study of Homo sapiens with 40 samples.

Results

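Solute carriers are membrane proteins that move amino acids, sugars, nucleotides, metal ions, lipids and other small molecules into cells and between their compartments. The 176 genes described here were chosen by symbol and by measured signal, with earlier results of these data known. They are the genes of the platform annotation with symbols that start with SLC and a number, without SLC45A3, SLC4A4, SLC2A1, SLC2A3, SLC16A3, SLC26A2 and SLC38A4, each of them represented by its brightest single-gene probe set, with a mean signal of at least 50 over the 40 arrays. They are 176 of 376 genes with such a symbol and a named probe set, and 194 lay below that signal. The members just inside the threshold were SLC10A7 at 53.3 and SLC39A13 at 52.2, and just outside it were SLC66A1 at 49.3 and SLC23A2 at 48.5. Of the 176 genes, 167 were counted as carriers, 6 are noncoding transcripts named for a neighbouring carrier, and SLC2A4RG, SLC4A1AP and SLC7A6OS encode proteins that are not carriers.

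The arrays come from LNCaP, an established human prostate cancer line that depends on androgen. According to the labels, 7 clones resistant to MDV3100 (enzalutamide, an antiandrogen), numbered 1, 9, 10, 14, 15, 19 and 24, and 3 control lines (control 1 is D+E- in the titles, control 2 is D+R- and control 3 is M+R-) were grown in RPMI-1640 with 10% fetal calf serum. After 3 days each received 10 µM MDV3100 or 0.1% DMSO, its solvent, for 24 h, and each combination has an array numbered replicate 1 and one numbered replicate 2. The groups are therefore 7 clone MDV3100, 7 clone DMSO, 3 control MDV3100 and 3 control DMSO arrays per replicate number. Each clone is a single line, the control titles are not explained, and nothing in the labels tells whether the replicate numbers stand for separate cultures, so that p-values measure the spread between these lines and arrays, which may be technical. The questions the design sets are how the drug changes expression in control lines and in clones, and how the clones differ from the control lines without it.

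Plasma membrane amino acid exchangers such as SLC7A5 work together with the heavy chain SLC3A2, zinc enters the cytosol through SLC39 carriers and leaves it through SLC30 carriers, and SLC25 carriers cross the inner mitochondrial membrane. SLC35 carriers supply nucleotide sugars to the Golgi apparatus, and SLC16 carriers move lactate, pyruvate and related acids. In the prostate, zinc uptake through SLC39A1 and leucine uptake through SLC43A1 and SLC7A5 have been studied most.

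The deposited values are linear array signals made with MAS5, which summarises the probes of each probe set, and differences below are on the log2(signal + 16) scale, which understates changes of dim genes. Because a probe set's brightness depends on its probes, levels are compared between arrays and not between genes. A gene was called changed when limma's adjusted p, over 11853 genes tested, was under 0.05, and the 2 replicate numbers were tested apart. This was done because equal labels did not give like arrays: across the 176 genes, after removal of each gene's mean, the median correlation between 2 arrays of one label was -0.349, and that between the treatments of one line within a number was 0.757. For 35 of 40 arrays the best match lay within the same number. UGT2B17, chosen after its values were seen, read 23.3 in clone 1 and 731.6 in control 2 in DMSO in replicate 1, against 980.2 on the array labelled clone 1 and 60.3 on that labelled control 2 in replicate 2, so results that use these 2 labels of replicate 2 are also given without them. Control 3 in DMSO also read lower in replicate 2, at 185.4 against 1253.8 in replicate 1. Across the 176 genes that array's best match was control 2 with MDV3100 in replicate 2. Control 3 was kept in the fits without these 2 labels. Of the luminal prostate markers, KLK3, FOLH1, HOXB13, KRT8, KRT18 and EPCAM were measured, and their summed signal lay between 6634.5 and 11686.1 on all arrays. The 5 measured immune markers summed to at most 31.7 and the 2 basal markers to at most 29.9. The summed stromal markers lay between 369.1 and 1221.3. This sum is mostly ACTA2, with a mean of 525.4 over all arrays, and COL1A1, with 136.6. The means of COL3A1, PDGFRB, COL1A2, DCN and LUM were at most 18.1. In bulk samples like these, fewer cells of a type and less RNA per cell cannot be told apart.

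The 250 bases before the first listed start are shown for 3 genes, from the RefSeq promoter table (GRCh38.p14): SLC7A5 and SLC1A3, called for the drug response of clones in replicate 1 but not in replicate 2, and SLC29A1, called in control lines in the fit over both numbers but in neither number alone. Capitals mark matches to 2 motifs searched on both strands: the E-box CACGTG and TGATGNAA, the core of the amino acid response element. SLC44A3, also called for the drug response of clones in replicate 1, was searched too and had no match at either of its 2 listed starts. SLC1A3 has 3 listed starts and SLC29A1 has 2, and only the first of each had a match. SLC7A5 lies on chr16:87869508-87869757, minus strand; SLC1A3 on chr5:36596338-36596587, plus strand; and SLC29A1 on chr6:44219365-44219614, plus strand.
SLC7A5: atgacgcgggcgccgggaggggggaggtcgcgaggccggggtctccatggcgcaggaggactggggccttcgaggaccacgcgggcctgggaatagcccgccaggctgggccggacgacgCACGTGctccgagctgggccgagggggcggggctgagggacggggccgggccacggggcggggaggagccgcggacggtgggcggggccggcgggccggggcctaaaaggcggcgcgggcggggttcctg
SLC1A3: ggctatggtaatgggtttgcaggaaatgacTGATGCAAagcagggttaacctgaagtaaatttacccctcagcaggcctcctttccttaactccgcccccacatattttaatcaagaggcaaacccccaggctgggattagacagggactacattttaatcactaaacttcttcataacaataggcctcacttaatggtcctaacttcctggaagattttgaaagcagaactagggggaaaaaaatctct
SLC29A1: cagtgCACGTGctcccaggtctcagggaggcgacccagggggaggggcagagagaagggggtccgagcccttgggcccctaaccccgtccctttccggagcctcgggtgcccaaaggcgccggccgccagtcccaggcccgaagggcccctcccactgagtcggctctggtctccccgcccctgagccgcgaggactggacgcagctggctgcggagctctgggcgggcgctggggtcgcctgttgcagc
Of the 176 genes, 153 had a promoter entry. The E-box was found in 24 of their 225 windows (10.67%) and in 6.34% of all 35116 windows, and TGATGNAA in 4 windows (1.78%) against 3.14%. A match is a description of these letters, and no match says only that they are absent from this window.

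Among the solute carriers called for the drug response of control lines over both replicate numbers, the leucine exchanger SLC7A5 rose most. The lysosomal amino acid sensor SLC38A9, the magnesium carrier SLC41A2, the taurine carrier SLC6A6 and the choline transporter-like gene SLC44A3 also rose. With the correlation between the numbers of a line set to 0, SLC38A9 lost its call (limma's adjusted p 0.0577) and the others named kept theirs. Within one replicate number none of them passed the test. In replicate 1, 0 of 176 genes were called with limma, where 1.18% of all genes were (0.43% higher and 0.751% lower), and 28 had an unadjusted p under 0.05. In replicate 2, 0 were called, where 0.118% of all genes were (0.0422% higher and 0.0759% lower), and 16 had an unadjusted p under 0.05. Over both numbers, with the number as a block and the arrays of one line tied by an estimated correlation, 14 of 176 were called, 9 higher and 5 lower, where 7.37% of all genes were called, 3.8% higher and 3.57% lower. The 14 called are, as a share of the 176, close to the share among all genes. They are named here after their values were seen. For comparison, the androgen targets KLK2 and TMPRSS2 fell in replicate 1, with log2 differences of -1.98 and -1.42 and limma's adjusted p of 0.000306 and 0.00488, and gave -1.02 and -0.68 in replicate 2, not called. KLK3 and FKBP5, from the same list of 4, gave -0.74 and -0.65 in replicate 1, with limma's adjusted p of 0.1 and 0.091. In replicate 2 KLK3 and FKBP5 gave -0.33 and -0.64, again not called.

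SLC7A5, which brings leucine and other large neutral amino acids into the cell, gave 234.8, 207.1 and 242.5 in controls 1, 2 and 3 with MDV3100 in replicate 1, against 120.0, 140.0 and 142.6 in DMSO. Every MDV3100 value was above every DMSO value. In replicate 2 it gave 309.2, 55.9 and 173.6 with MDV3100, against 116.2, 46.5 and 57.9 in DMSO. All 3 lines were again higher with the drug, but the array labelled control 2 was low under both treatments and the groups overlapped. The difference was 0.70 (SE 0.17) in replicate 1 and 0.95 (SE 0.21) in replicate 2, with limma's adjusted p of 0.0790 and 0.135, and 0.83 (SE 0.13) over both with adjusted p 0.00335. Without control 2, in which SLC7A5 rose least, replicate 2 gave 1.33 with limma's adjusted p of 0.000376. That fit rests on only 2 differences, those of controls 1 and 3. It called 142 of all genes, against 14 with every line. SLC3A2, its heavy chain, differed by 0.09 in each number and was not called, and SLC43A1, another leucine carrier, differed by -0.09 and -0.28 and was not called.

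SLC41A2 read 217.3, 243.5 and 166.9 with MDV3100 in replicate 1, against 117.9, 124.1 and 118.6 in DMSO, and 138.6, 143.0 and 201.5 against 89.0, 125.6 and 142.4 in replicate 2. Its groups were apart in replicate 1 and overlapped in replicate 2, and over both it rose by 0.55 (SE 0.09, limma's adjusted p 0.00398). Its 2 other probe sets differed by 0.42 and 0.60 in replicate 1 and by 0.34 and 0.25 in replicate 2. SLC38A9, through which arginine in the lysosome is sensed, read 327.7, 239.8 and 179.9 with MDV3100 against 150.4, 108.6 and 144.2 in DMSO in replicate 1, where the groups were apart. In replicate 2 it read 144.1, 109.3 and 172.8 with MDV3100 against 99.3, 129.6 and 92.6 in DMSO, and the array labelled control 2 was lower with the drug. SLC44A3 read 269.6, 234.3 and 164.9 with MDV3100 against 129.7, 153.5 and 141.4 in DMSO in replicate 1, and 151.7, 169.7 and 171.8 against 108.1, 127.7 and 114.2 in replicate 2, apart in both numbers.

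The other genes that rose over both numbers were the antisense transcript SLC9A3-AS1 (0.57, SE 0.09), SLC60A1, earlier named MFSD4A (0.54, SE 0.11), SLC6A6 (0.52, SE 0.10), SLC38A6, an amino acid carrier of the glutamine transporter family (0.47, SE 0.13), and SLC22A17, the receptor of lipocalin-2 (0.36, SE 0.09). SLC38A6 reached 0.88 in replicate 1 and 0.05 in replicate 2. The 5 that fell were the sodium-proton exchanger SLC9A2 (-0.45, SE 0.11), SLC39A7, which releases zinc from the endoplasmic reticulum (-0.43, SE 0.10), the nucleoside carrier SLC29A1 (-0.39, SE 0.09), the mitochondrial iron importer SLC25A37 (-0.35, SE 0.09) and the zinc importer SLC39A10 (-0.33, SE 0.08). SLC39A7 read 339.4, 308.7 and 564.0 with MDV3100 against 706.0, 646.8 and 678.7 in DMSO in replicate 1, and 725.6, 865.9 and 768.2 against 759.4, 888.2 and 862.4 in replicate 2. The fall of SLC39A7 was largest in controls 1 and 2 of replicate 1, and its difference in replicate 2 was -0.09. SLC29A1 read 420.4, 288.0 and 320.1 with MDV3100 against 564.1, 574.4 and 522.0 in DMSO in replicate 1, and 591.1, 815.6 and 688.8 against 692.3, 768.9 and 770.4 in replicate 2, where the groups overlapped. All 14 genes had the same sign in both numbers.

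**Figure D1:**
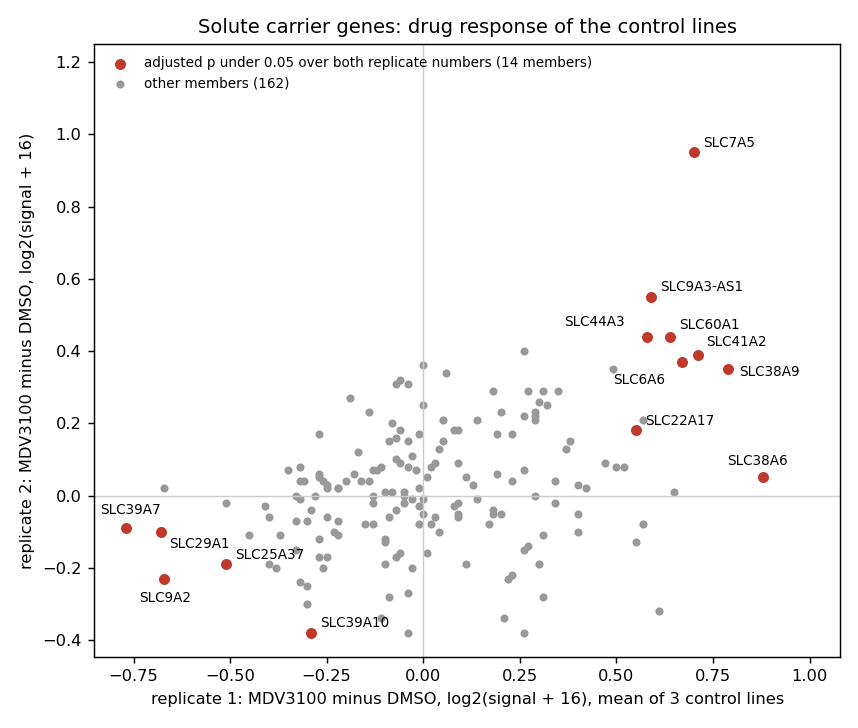
Mean difference MDV3100 minus DMSO of each of the 176 solute carrier genes over the 3 control lines, log2(signal + 16), in replicate 1 (x axis) and replicate 2 (y axis). Red points are the 14 genes with limma's adjusted p under 0.05 over both numbers, and SLC7A5 at 0.70 and 0.95 lies farthest towards the upper right.

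The estimated correlation between the numbers of one line was -0.275, below 0, which narrows the errors of the fit over both numbers. With that correlation set to 0, SLC7A5, SLC41A2, SLC9A3-AS1, SLC44A3, SLC6A6 and SLC60A1 were still called, 6 of 176 where 3.1% of all genes were, and none of the genes that fell was. Without the 2 doubted labels 10 of 176 were called, where 7.14% of all genes were, and on the mean of both numbers per line 12 were, where 6.07% were. In replicate 2 alone without those labels 1 was called, SLC7A5, where 1.2% of all genes were. In replicate 1 the count hung on control 3: without it 35 of 176 were called, 24 higher and 11 lower, where 16% of all genes were (9.45% higher and 6.53% lower), among them SLC38A6 at 1.28 and SLC39A7 at -1.03. The actin 3′/5′ ratio, a measure of RNA integrity, was 4.256, 6.59 and 4.499 with MDV3100 against 4.076, 3.182 and 4.118 in DMSO in controls 1, 2 and 3 of replicate 1, and 3.361 to 3.954 against 3.303 to 3.703 in replicate 2. Its part in the result was not tested.

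**Figure D2:**
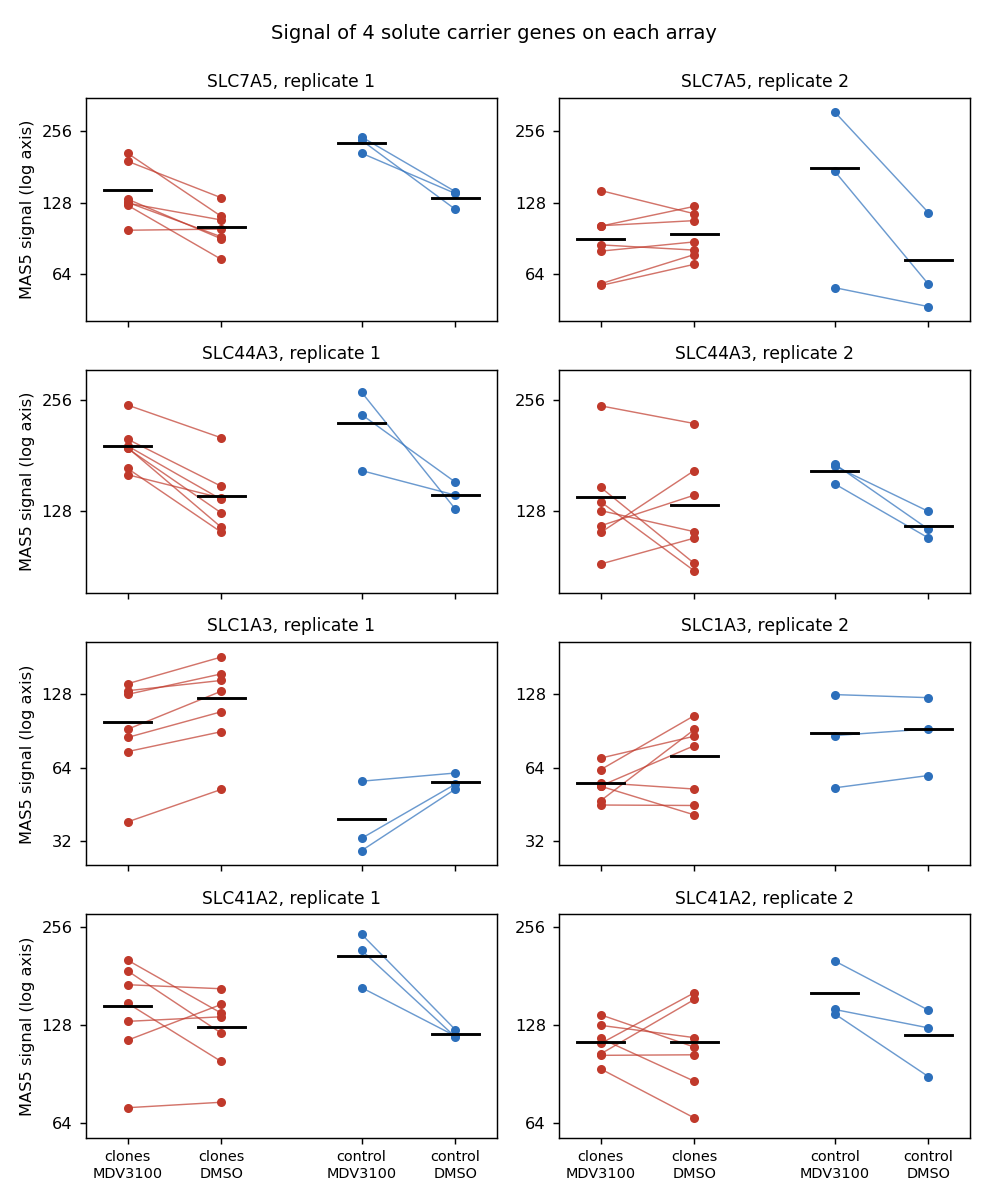
MAS5 signal of SLC7A5, SLC44A3, SLC1A3 and SLC41A2 on each array (log axis), replicate 1 on the left and replicate 2 on the right. Points of one line are joined, red for clones and blue for control lines, and black bars are group means. SLC7A5 was higher with MDV3100 in all control lines in both numbers.

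Read by transporter class, no class held a called gene within one number, and most class medians were near 0. In replicate 1 the median response was 0.23 for the 9 iron, copper and magnesium carriers, 7 of which were above 0, and 0.25 for the 4 bicarbonate and anion carriers, all above 0. In replicate 2 these medians were 0.07 and 0.03. The 17 zinc and manganese carriers had medians of -0.11 and -0.06, with 11 below 0 in each number. The 10 carriers of peptides, vitamins and nucleosides had medians of -0.13 and -0.05, with 8 and 6 below 0. Of the 23 amino acid carriers 9 were above 0 in replicate 1 and 16 in replicate 2, although SLC7A5, SLC38A9 and SLC38A6 are among them. Of the 35 mitochondrial carriers 24 were below 0 in replicate 1 (median -0.07) and 18 in replicate 2. Over all 176 genes the medians were -0.02 and 0.02, and over all genes tested -0.01 and 0.02. The sign was the same in both numbers for 102 of the 176 genes (58.0%) and for 57.6% of all genes tested.

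The member with the largest difference in its class, whether called or not, was in replicate 1 SLC4A7, a bicarbonate importer (0.30), SLC12A2, the sodium-potassium-chloride carrier (0.47), SLC25A18, a mitochondrial glutamate carrier (-0.67), the pyruvate carrier SLC16A7 (0.34), the nucleotide sugar family member SLC35F2 (-0.40), SLC37A3 (0.50) and SLC2A4RG (0.31). In replicate 2 these differences were -0.19, 0.09, 0.02, 0.04, -0.19, 0.08 and 0.29, in that order. The largest in replicate 2 were, apart from genes already named, SLC20A2, a phosphate carrier (-0.28), SLC41A3, a magnesium carrier (0.40), SLC25A32, the mitochondrial folate carrier (-0.34), SLC16A9 (0.34), SLC35B4 (-0.38), SLC29A3, a lysosomal nucleoside carrier (0.31), and the glucose carrier SLC2A12 (-0.30). None of these was called in either number.

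In the clones 3 solute carriers changed with the drug in replicate 1, 2 higher and 1 lower, where 1.9% of all genes were called, 0.726% higher and 1.17% lower. SLC44A3 was higher with MDV3100 in 7 of 7 clones: its signal was 160.7 to 248.7, median 190.4, with MDV3100 and 112.1 to 202.6, median 137.7, in DMSO. The rise was 0.43 (SE 0.07, limma's adjusted p 0.0141). SLC7A5 was higher in 6 of 7 clones, at 97.8 to 206.9, median 128.3, with MDV3100 and 73.7 to 134.2, median 98.9, in DMSO, and rose by 0.43 (SE 0.09, limma's adjusted p 0.0414). SLC1A3, a glutamate and aspartate carrier, was lower in 7 of 7 clones, at 38.4 to 140.9, median 91.8, with MDV3100 and 52.1 to 181.1, median 131.3, in DMSO, a difference of -0.29 (SE 0.06, limma's adjusted p 0.0374). In all 3 genes the ranges of the treatments overlapped. The call of SLC44A3 was lost without clone 10 (adjusted p up to 0.0635 over the clones left out) or clone 14. Those of SLC7A5 and SLC1A3 were lost without clone 9, 10, 14, 15 or 19, with adjusted p of up to 0.13 and 0.132.

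In replicate 2 no solute carrier and no other gene was called in the clones with limma (0% of all genes), where 22 of 176 and 1218 of all genes had an unadjusted p under 0.05. SLC44A3 differed by 0.07 (SE 0.13), SLC7A5 by -0.09 (SE 0.08) and SLC1A3 by -0.24 (SE 0.12). SLC7A5 read 57.1 to 143.9, median 84.8, with MDV3100 and 70.2 to 123.4, median 87.3, in DMSO, and these ranges overlapped. SLC48A1, which carries haem out of lysosomes, differed by -0.40 (SE 0.09, unadjusted p 0.00163). Its signal was 246.3 to 818.3, median 287.4, with MDV3100 and 342.3 to 731.8, median 422.8, in DMSO, and it was lower in 6 of 7 clones. The array pair labelled clone 1 was at 818.3 with MDV3100 and 731.8 in DMSO, and without it SLC48A1 fell by 0.50 on the log2 scale, with limma's adjusted p of 0.0299. In some genes the responses of replicate 2 were alike in clones 9 and 15, 10 and 19, and 14 and 24. SLC7A11 gave -0.69 and -0.6, -0.25 and -0.16, and -0.58 and -0.55 in them. SLC48A1 gave -0.27 and -0.51, -0.64 and -0.61, and -0.42 and -0.53. The fits take the clones as separate lines, so errors in replicate 2 are too small if these are not independent, which was not tested. In replicate 1 SLC48A1 differed by 0.08. Over both numbers 1 of 176 genes was called, where 1.72% of all genes were (0.532% higher and 1.19% lower): SLC16A10, a carrier of aromatic amino acids, at -0.18 (SE 0.04, limma's adjusted p 0.0406). SLC16A10 was at an adjusted p of 0.0323 with the correlation set to 0 (2.44% of all genes called), 0.060 without the doubted labels (0.92%) and 0.0898 on line means (0.506%). In replicate 2 without those labels 0.16% of all genes were called. Among the largest differences of their classes in clones, none of them called, were SLC25A32 (-0.34), SLC39A13, a zinc carrier (0.35), SLC29A2, a nucleoside carrier (-0.25), and SLC12A2 (0.23) in replicate 1, and SLC7A11, which exchanges cystine for glutamate (-0.37), SLC25A35 (-0.32) and SLC22A23 (0.36) in replicate 2. The copper importer SLC31A1, also not called, was at -0.47 in replicate 2, with -1.5 in clone 14, -1.58 in clone 24 and -0.21 to 0.07 in the other clones, and at -0.30 without clone 14 and -0.29 without clone 24. Its other probe sets gave mean clone responses of -0.15 and -0.07 in replicate 2.

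**Figure D3:**
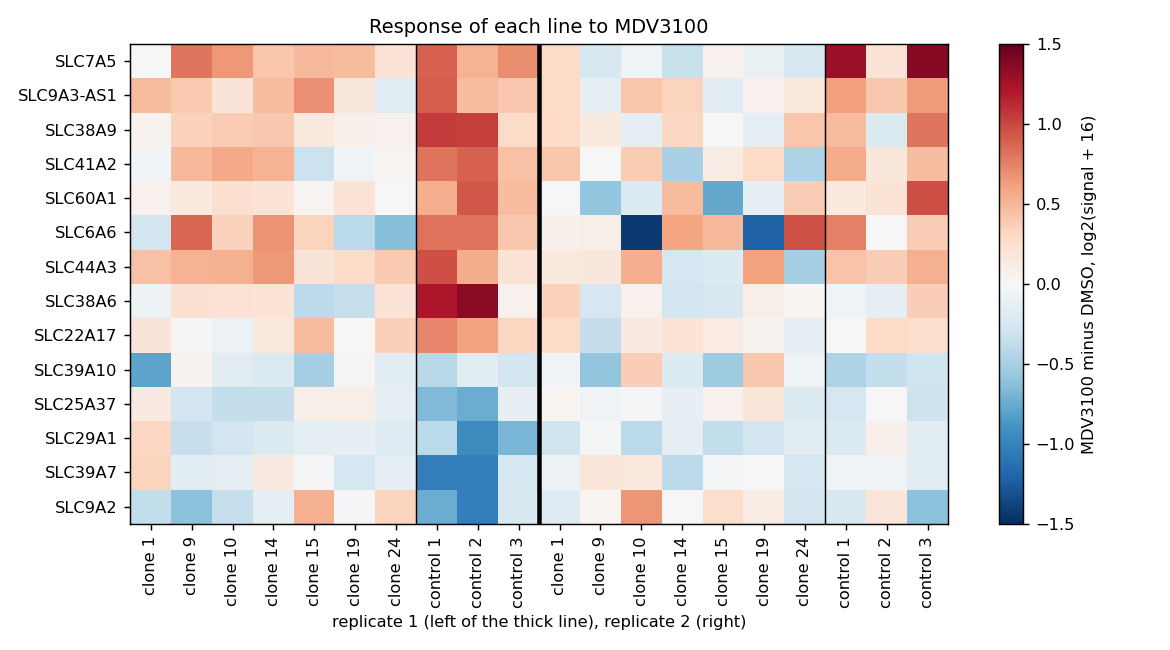
Difference MDV3100 minus DMSO, log2(signal + 16), of each line (columns, clones then control lines, replicate 1 left of the thick line and replicate 2 right) for the 14 genes called over both numbers in the control lines. SLC7A5, in the top row, is above 0 in every control line of both numbers, and the darkest blue cells are SLC6A6 in clones 10 and 19 of replicate 2.

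The difference between the responses of clones and control lines was tested directly. In replicate 1, 0 of 176 genes were called with limma, where 0.00844% of all genes were, and 32 had an unadjusted p under 0.05. In replicate 2, 0 were called, where 0% of all genes were, and 21 had an unadjusted p under 0.05. SLC7A5 responded less in the clones in both numbers, by -0.27 (SE 0.17) and -1.04 (SE 0.22), with adjusted p of 0.423 and 0.126. Over both numbers it was the one called gene of 176, at -0.66 (SE 0.15, limma's adjusted p 0.0432), where 0.936% of all genes were called, 0.464% higher and 0.472% lower. This call held without the 2 doubted labels of replicate 2 (-0.78, adjusted p 0.0227, 1.38% of all genes called) and was lost with the correlation set to 0 (adjusted p 0.0834, 0.169%) and on line means (adjusted p 0.0503, 0.717%). In replicate 2 without those labels SLC7A5 was at -1.48 (adjusted p 0.000905) and SLC48A1 at -0.76 (adjusted p 0.0346), 2 of 176 where 1.2% of all genes were called. Only 2 control lines enter that fit. SLC60A1 differed by -0.51 and -0.57 in replicates 1 and 2, and SLC39A7 by 0.73 and 0.03, and neither was called. Without control 3, replicate 1 gave 33 called genes of 176, where 14.5% of all genes were called.

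Clones and control lines also differed in the level of some solute carriers in DMSO, but which genes differed depended on the replicate number. In replicate 1, 8 of 176 genes were called, 5 higher and 3 lower in clones, where 6.13% of all genes were called, 3.66% higher and 2.47% lower. SLC16A7, the high-affinity pyruvate and lactate carrier, was lower: its signal was 33.4 to 143.1, median 103.8, in clones and 241.1, 356.6 and 278.0 in controls 1, 2 and 3, with no overlap. The difference was -1.57 (SE 0.32, limma's adjusted p 0.0227), and another of its probe sets gave -1.45. In replicate 2 SLC16A7 read 58.8 to 207.2, median 165.8, in clones and 196.4, 63.9 and 42.0 in controls, a difference of 0.64 (SE 0.39, adjusted p 0.257). The reading of control 1 was similar in both numbers, and those labelled control 2 and control 3 were far lower in replicate 2.

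The transcript SLC9A3-AS1 was higher in clones in replicate 1, at 225.6 to 339.5, median 254.3, and 104.4, 111.3 and 141.4 in controls, by 1.03 (SE 0.13, limma's adjusted p 0.00274). In replicate 2 it was at 55.7 to 227.4, median 76.5, in clones and 87.2, 231.1 and 212.9 in controls, and the clone at 227.4 was that labelled clone 1. SLC44A4, a choline transporter-like carrier, read 359.7 to 669.9, median 569.3, in clones and 367.5, 188.6 and 288.6 in controls in replicate 1 (difference 0.94, SE 0.22, adjusted p 0.0347). In replicate 2 it read 195.4 to 339.3, median 233.4, in clones and 287.7, 342.6 and 553.2 in controls (difference -0.55, not called). SLC2A12, the glucose carrier GLUT12, read 918.8 to 1408.9, median 1081.2, in clones and 683.9, 726.4 and 724.1 in controls in replicate 1 (difference 0.62, SE 0.13, adjusted p 0.0229). In replicate 2 it read 483.2 to 718.2, median 625.8, in clones and 605.3, 1262.9 and 1035.9 in controls (difference -0.56, not called).

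The other genes called in replicate 1 were SLC35B3, which brings the sulfate donor PAPS into the Golgi (0.54, SE 0.11), and SLC7A8, an exchanger related to SLC7A5 (0.39, SE 0.10), higher in clones, and the mitochondrial carnitine-acylcarnitine carrier SLC25A20 (-0.60, SE 0.15) and ornithine carrier SLC25A15 (-0.45, SE 0.10), lower in clones. In replicate 2 they differed by -0.51, -0.51, 0.28 and -0.09. Of the 8 calls, that of SLC9A3-AS1 held whichever line was left out (adjusted p up to 0.0232). The other 7 were lost without control 1 and without control 2, and all of these but SLC35B3 also without control 3, so that 1, 1 and 2 genes of the 176 were called without controls 1, 2 and 3. Of all 11853 genes 122, 116 and 102 were called in these fits, against 727 with every line.

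In replicate 2, 23 of 176 genes were called, 7 higher and 16 lower in clones, where 10.3% of all genes were called, 3.93% higher and 6.36% lower. The zinc importer SLC39A1 was higher, at 85.0 to 252.3, median 201.3, in clones and 82.9, 84.1 and 61.8 in controls, a difference of 1.06 (SE 0.27, limma's adjusted p 0.0378). In replicate 1 SLC39A1 read 63.7 to 94.5, median 74.1, in clones and 98.5, 101.8 and 70.9 in controls (difference -0.20). SLC38A6 read 108.0 to 278.2, median 253.1, in clones and 87.8, 86.4 and 81.5 in controls in replicate 2 (difference 1.07, SE 0.28, adjusted p 0.0394), and 89.0 to 142.0, median 107.6, in clones and 126.1, 89.8 and 106.8 in controls in replicate 1 (difference 0.02). In both genes the lowest clone was that labelled clone 1, next to the highest control. The others that were higher were the sodium-proton exchanger SLC9B2 (0.79), SLC9D1, earlier named TMCO3 (0.77), SLC38A9 (0.71), SLC35G1 (0.70) and SLC16A9 (0.63). Another probe set of SLC9D1 gave 0.18 in replicate 2.

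Among the genes lower in clones in replicate 2, the glucose carrier SLC2A6 read 30.1 to 87.8, median 49.9, in clones and 171.1, 110.1 and 120.4 in controls (difference -1.08, SE 0.25, limma's adjusted p 0.0294). The fatty acid carrier SLC27A1 read 72.1 to 180.1, median 91.5, in clones and 171.6, 234.2 and 260.9 in controls (difference -1.07, SE 0.23, adjusted p 0.0253), and the clone at 180.1 was again that labelled clone 1. The folate carrier SLC19A1 read 409.1 to 556.7, median 493.9, in clones and 698.3, 801.5 and 1033.7 in controls, with no overlap (difference -0.75, SE 0.14, adjusted p 0.0174). In replicate 1 these 3 genes differed by 0.05, 0.16 and 0.05. Further genes with the largest falls were the mitochondrial carrier SLC25A45 (-1.03), SLC33A2, earlier named MFSD3 (-0.85), the monoamine carrier SLC29A4 (-0.80), SLC2A4RG (-0.78), SLC38A10 (-0.78) and the lysosomal amino acid carrier SLC36A1 (-0.77), and in replicate 1 they lay between -0.16 and 0.20. The remaining 7 were SLC9A2, SLC24A1, SLC25A23, SLC25A5-AS1, SLC35A4, SLC25A10 and SLC2A8, between -0.77 and -0.43. In replicate 2 other probe sets gave -0.05 for SLC38A10 and -0.5, -0.15 and -0.46 for SLC2A4RG. They gave -0.97 for SLC25A45 and -0.64, -0.67 and -0.88 for SLC19A1.

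These calls leaned on single lines. Without control 2 or without control 3, 0 of 176 genes were called in replicate 2, by limma, with 9 of all genes called in each case. Without clone 1, 66 of 176 were called, where 32.8% of all genes were. Without the arrays labelled control 2 and clone 1, 41 were called, 7 higher and 34 lower, where 18.6% of all genes were (7.47% higher and 11.1% lower). The array labelled clone 1 stood with the control lines in SLC48A1 (731.8, against 595.0, 610.3 and 727.8 in controls) and in SLC43A2, a leucine carrier (222.1, against 153.0, 151.9 and 218.6 in controls), where the other 6 clones were at 29.4 to 67.4. Of all 176 genes, 113 were lower in clones in replicate 2 (median -0.15), and over all genes tested the median was -0.05. The median signal of the 176 genes on an array was 285.75 to 356.75 in clones and 344.35 to 368.2 in controls in DMSO in replicate 2. The actin 3′/5′ ratio on these arrays was 2.692 to 3.48 in clones and 3.303 to 3.703 in controls. The 7 stromal markers, whose sum is on average mostly ACTA2 and COL1A1, summed to 511.8 to 638.2 in clones and 610.1 to 1221.3 in controls. Their part in the result was not tested.

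**Figure D4:**
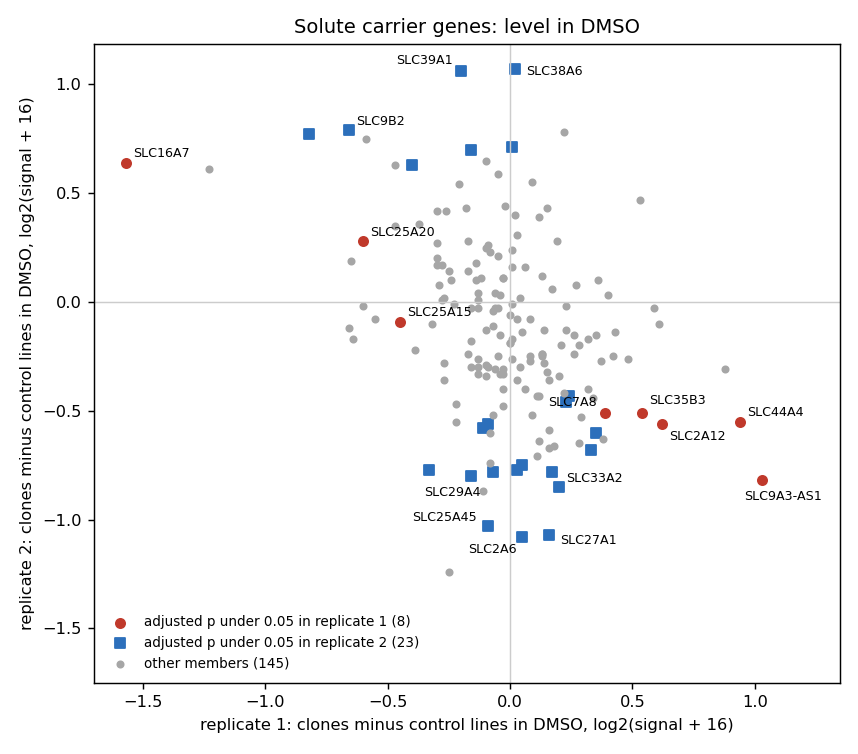
Difference clones minus control lines in DMSO, log2(signal + 16), of the 176 solute carrier genes in replicate 1 (x axis) and replicate 2 (y axis). Red circles are the 8 genes called in replicate 1 and blue squares the 23 called in replicate 2, and no gene is in both sets.

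No gene was called in both numbers. Of the 8 called in replicate 1, SLC25A15 alone had the same sign in replicate 2, and of the 23 called in replicate 2, 8 had the same sign in replicate 1. Over all 176 genes 68 (38.6%) had the same sign, and over all genes tested 40.8% had. In the fit over both numbers 5 of 176 were called, where 5.32% of all genes were (3.21% higher and 2.1% lower), and without the 2 doubted labels 12 were, where 8.85% were. SLC60A1 was higher in clones, at 0.53 and 0.47 in the 2 numbers and 0.50 over both (SE 0.10, limma's adjusted p 0.0148). Its signal was 81.2 to 103.8, median 96.3, in clones and 69.1, 39.0 and 76.0 in controls in replicate 1, and 57.6 to 99.4, median 85.3, in clones and 55.5, 57.7 and 40 in controls in replicate 2. It is thus both higher in untreated clones than in untreated controls and among the genes that MDV3100 raised in controls over both numbers, comparisons that share the control DMSO arrays. The other 4 were lower in clones: SLC25A5-AS1 (-0.35), the GDP-fucose carrier SLC35C1 (-0.35), SLC35A4 (-0.32) and the zinc carrier SLC39A9 (-0.23). With the correlation set to 0 SLC60A1 alone was called (adjusted p 0.0350, 1.8% of all genes), and on the mean of both numbers per line no gene of the 176 was (adjusted p 0.0547 for SLC60A1, 0.118% of all genes called).

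**Figure D5:**
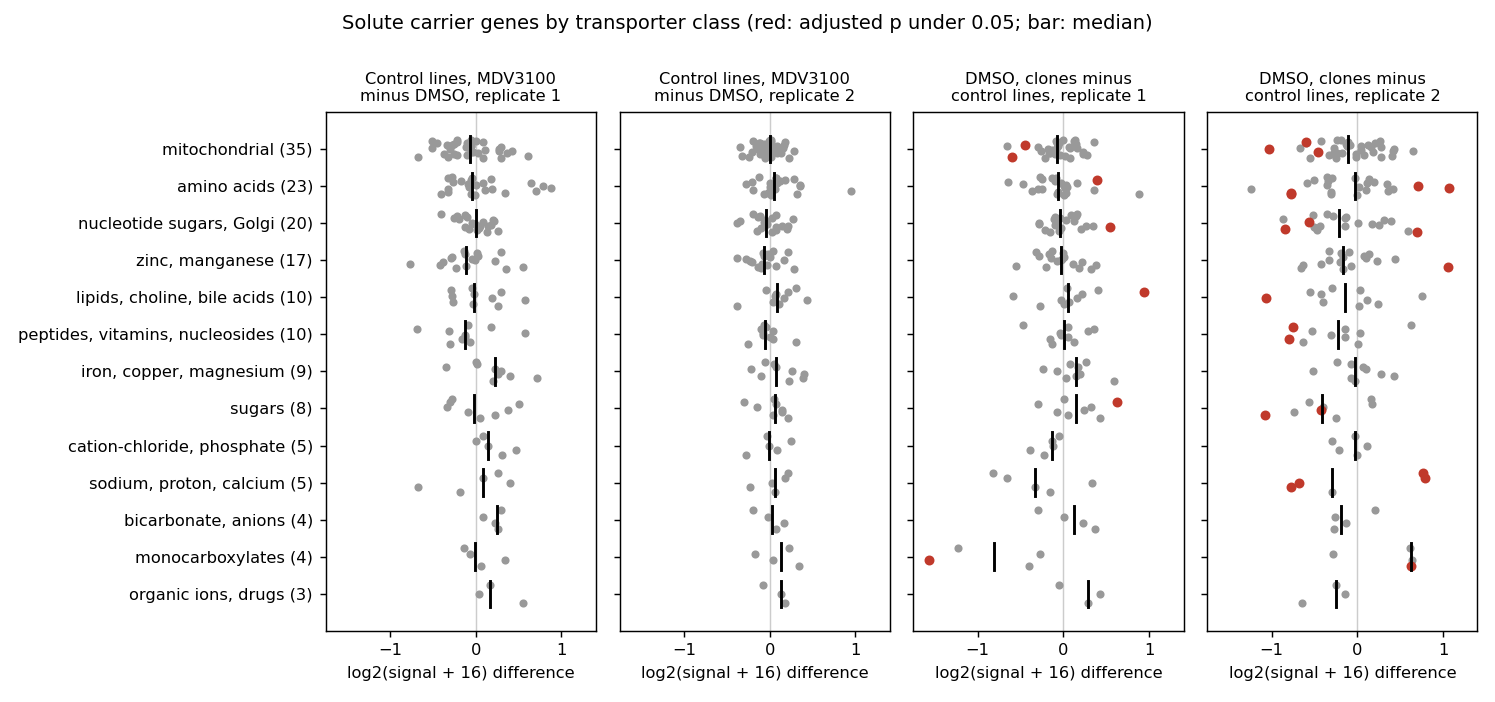
Differences of solute carrier genes by transporter class (rows, number of genes in brackets, classes of at least 3 genes with known cargo): response of control lines in replicates 1 and 2, then level of clones minus control lines in DMSO in replicates 1 and 2, log2(signal + 16). Red points had an adjusted p under 0.05 and black bars are class medians, which for the 4 monocarboxylate carriers were -0.82 and 0.62 in the DMSO panels.

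By class, the contrast between the numbers was widest for the 4 SLC16 carriers, all lower in clones in replicate 1 (median -0.82) and 3 of them higher in replicate 2 (median 0.62). Of the 8 sugar carriers 6 were higher in clones in replicate 1 (median 0.15) and 6 were lower in replicate 2 (median -0.41). Among the 20 carriers of the nucleotide sugar and Golgi class, 11 and 13 were lower, with medians of -0.04 and -0.22. The 23 amino acid carriers had 13 lower in each number, with medians of -0.06 and -0.03, and the 35 mitochondrial carriers 21 lower in each, with medians of -0.07 and -0.11. The 5 cation-chloride and phosphate carriers, among them SLC12A2 at -0.39 and -0.22, were lower in 5 and 4 cases, with medians of -0.13 and -0.03.

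Lines also differed among themselves. The range over the 10 lines in DMSO had a median of 0.60 in replicate 1 and 0.92 in replicate 2 over the 176 genes, on the log2 scale. It was widest in replicate 1 for SLC16A14, a carrier of the monocarboxylate family, which read 36.3 in clone 10 and 413.9 in clone 19, against 342.9 to 399.0 in controls. In replicate 2 clone 10 read 329.2 and the lowest line was control 3 at 94.9. SLC43A1 had the widest range in replicate 2, with 54.6 on the array labelled clone 1 and 410.6 in clone 24, against 118.5 to 296.6 in controls. In replicate 1 SLC43A1 read 105.0 in clone 19 and 300.5 in clone 9, against 247.4 to 284.1 in controls.

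A set of well-studied transporters was followed whatever their values. SLC16A1, SLC25A6 and SLC22A3 are not analysed here, and SLC15A2 had a mean signal of 30.0. Of the others, SLC7A5 was called for the response of clones in replicate 1, SLC44A4 for the level in replicate 1, and SLC39A1 and SLC19A1 for the level in replicate 2. The glutamine carriers SLC1A5 and SLC38A2 and SLC7A11 were not called, and their differences in the control response were 0.19 and 0.06, -0.04 and 0.08, and 0.18 and 0.29 in replicates 1 and 2. The mitochondrial phosphate carrier SLC25A3 and the ADP/ATP carrier SLC25A5 differed by -0.05 and -0.22 in replicate 1, and SLC25A5 by 0.02 in replicate 2. The zinc carriers SLC39A6, SLC39A8, SLC30A1 and SLC30A5 lay between -0.27 and 0.22 in the control response and were not called. Other probe sets of SLC39A6, not tested, gave -0.69, -0.31 and -0.41 in replicate 1 and -0.33, -0.25 and -0.19 in replicate 2. Those of SLC39A8, SLC30A1 and SLC30A5 lay between -0.45 and 0.61.

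Carriers and partners with other symbols were listed beside these genes, 31 in all, of which 30 had a named probe set and 18 were tested. In the response of control lines 1 was called, in replicate 1, and in that of clones the same gene was called in replicate 1. It was MPC2, a subunit of the mitochondrial pyruvate carrier, named after its values were seen, at -0.82 (limma's adjusted p 0.0448) in control lines and -0.43 (adjusted p 0.0429) in clones. In replicate 2 MPC2 differed by -0.06 in clones and -0.45 in control lines and was not called. In the DMSO level, MFSD2A was lower in clones in replicate 1 (-0.40, adjusted p 0.0489), and in replicate 2 MPC1 (0.53) and MFSD8 (0.49) were higher and SPNS1 (-0.65) and UCP2 (-0.56) lower, with adjusted p of 0.0253, 0.037, 0.0372 and 0.0328. Of all genes 6.13% were called in replicate 1 and 10.3% in replicate 2. MFSD2A differed by 0.41 in replicate 2, and MPC1, MFSD8, SPNS1 and UCP2 by 0.1, 0.18, 0.18 and 0.82 in replicate 1, not called. UCP2 was dim, with a mean signal of 17.5. BSG and EMB, partners of SLC16 carriers, were not called in any comparison.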

How the data were processed

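The deposited values are linear signal intensities per probe set, made by the authors with MAS5 per the submitters' processing notes (version not given in the sources used here), for 54675 probe sets on 40 arrays. Their mean after trimming 2% at each end was 150.0 on every array, so they were not normalised again. The median signal of an array still lay between 10.7 and 18.4, and was highest for clone 15 with MDV3100 in replicate 1. With quantile normalisation the clone response of replicate 1 again had 3 of the 176 genes called, where 218 of all genes were. Gene names came from the platform annotation: 41097 probe sets named 1 gene, 1801 several and 11777 none. Each gene took its brightest single-gene probe set. Genes at or above the median of all probe set means (log2 4.815, signal 12.1) were tested, 11853 in all, every one of the 176 included. limma 3.58.1 in R 4.3.3 was fitted on log2(signal + 16). Responses were MDV3100 minus DMSO within a line and number, and levels were compared between lines, with Benjamini-Hochberg adjustment over all genes tested. A further promoter motif that was searched is not reported here. The script was tested on simulated data. Treatments were paired within a line and number, which share the line's cells. After removal of each gene's mean over the 40 arrays, such pairs correlated at r = 0.404 to 0.854 across all genes tested. Equal labels of the 2 numbers correlated at -0.642 to 0.38 on the same values. A shift shared by all arrays of a number would also lower the correlations between numbers, and its part was not tested.

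The members, the transporter classes and the lists were chosen with earlier results of these data known. Named genes are up to 8 largest rises and falls among called members with one direction in every line (levels: called), the largest difference in each class of at least 3 members, a fixed set, and the same genes' values in the other number. Alternatives were the pseudocount, the filter, the mean of all probe sets, quantile normalisation, an intensity trend, no pairing, a fit over both numbers with the number as a block, and leaving out each line or the 2 doubted labels. The fits without doubted labels over both numbers, with the correlation at 0 and on line means were added after seeing the data. The number of arrays limits the precision.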

Additional observations from a re-analysis of the deposited data

Results flagged for a closer look

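For the 25 sets of called-gene values in 7 clones that were tested with Dixon's criterion, 3 had an array far from the others, and chance alone gives about 1 in 20. All 3 were the DMSO array labelled clone 1 of replicate 2. SLC27A1 was at 7.62 on the log2(signal + 16) scale there, and 6.46 to 6.87 in the other 6 clones. SLC33A2 was at 7.9 there, and 6.69 to 7.18 in the others. SLC38A10 was at 6.85 there, and 5.98 to 6.29 in the others. For no gene did every clone respond one way and every control line the other.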

How the results depend on the processing

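Under the alternatives, 2538 values of named genes were recomputed. Of these, 2186 kept their direction and their side of the threshold. A further 229 kept the direction but lost the call, 104 gained one and 19 changed sign. A call is lost only where the main fit made one, and many of the 2538 values belong to genes it did not call. The 229 are therefore a larger share of the calls than of the 2538 values. Without control 3, 21 of 107 values lost the call and 25 gained one. Without control 2, 22 of 107 lost it and 2 gained one. With quantile normalisation 1 of 140 lost it and 0 gained one. The cause of these changes was not tested, except that fewer lines enter where one is left out.

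For the count of called solute carriers, the fit over both replicate numbers with the replicate block gave 14 in the control response, 1 in the clone response, 1 in the difference of responses and 5 in the DMSO level. Without the arrays labelled control 2 and clone 1 of replicate 2, this block fit gave 10, 1 and 2 for the first 3 of these comparisons. With the within-line correlation set to 0 it gave 6 in the control response, 1 in the clone response and 1 in the level, and on the mean of both numbers per line 12, 0 and 0. In replicate 2 alone, leaving out those arrays gave 1 in the control response, 1 in the clone response, 2 in the difference and 41 in the level. The clone response of replicate 1, with 3 called, gave 5 at a pseudocount of 64, 1 with no filter, 5 at a mean signal of at least 50, 7 on the mean of all probe sets and 0 without pairing by line. Of all genes, 345 of 11853, 91 of 19775, 328 of 9758, 430 of 11853 and 3 of 11853 were called in these fits, against 225 of 11853. The level of replicate 1, with 8 called, gave 16 on the mean of all probe sets, where 886 of 11853 genes were called, against 727.

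Leaving out one line at a time gave 0 to 35 called in the control response of replicate 1 and 0 to 3 in replicate 2, 0 to 5 and 0 to 1 in the clone response, 0 to 33 and 0 to 3 in the difference, and 1 to 23 and 0 to 66 in the level. Of all 11853 genes, 49 to 1894 and 0 to 142 were called in the control response, 37 to 296 and 0 to 19 in the clone response, 0 to 1718 and 0 to 88 in the difference, and 102 to 1449 and 9 to 3884 in the level. The counts of 35 and 33 came without control 3, that of 66 without clone 1 and that of 23 without clone 19.

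Signs changed with the replicate block for SLC20A2 (0.01) and SLC4A7 (0.06) in the control response of replicate 2, SLC2A12 (-0.06) in the clone response of replicate 2, and SLC16A7 (-0.46), SLC4A11 (0.05), SLC9A3-AS1 (0.10) and SLC9D1 (-0.02) in the level of replicate 2. SLC4A11, SLC10A7 and SLC19A2 are named as the largest differences of their classes. Signs also changed for SLC10A7 in the difference of replicate 1 (0.07) and for SLC19A2 (0.08) and SLC7A8 (-0.06) in the level of replicate 1, where the correlation at 0 and the line means gave the same values and the block fit without the doubted arrays gave 0.02, 0.10 and -0.03.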
